A study of Mus musculus with 4 samples.

Results

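The genes described here encode the hypoxia-inducible factor (HIF) subunits and the enzymes that sense oxygen for them. They are 8 of the 31053 genes in the count matrices, found by their symbols: Hif1a, Epas1 and Arnt (the subunits), Egln1, Egln2 and Egln3 (the prolyl hydroxylases), Hif1an (the asparaginyl hydroxylase) and Vhl (the substrate receptor of the ubiquitin ligase). All 8 were detected in every library and all 8 had enough counts to be tested. Single-cell RNA sequencing (10X Genomics 3′ kit) was performed on primary bone marrow (BM) macrophages of young male C57BL/6J mice, flushed from femur and tibia and grown with macrophage colony stimulating factor (M-CSF). Efferocytic BM macrophages shared their dish for 16–18 h with apoptotic cells of RM1, a Ras and Myc driven prostate cancer line of the same mouse strain that was killed with UV light and labeled with the dye CFSE, and were sorted as F4/80+CFSE+ cells. Non-efferocytic BM macrophages were sorted as F4/80+ cells. The study's scheme draws them from dishes without RM1 cells, while its text calls them both macrophages alone and non-engulfing macrophages, so whether they had been exposed to RM1 cells is not fully settled here, and the folds compare the sorted groups as they are. All cultures stood in ambient oxygen, and each of 2 experiments gave 1 library per group. Nothing in the labels says whether the experiments used separate mice, so the p-values below refer to these libraries only. Groups were compared within each experiment, which left 1 residual degree of freedom, so that these p-values lean on variance estimated over all genes.

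HIF is a dimer of an α subunit, HIF-1α (Hif1a) or HIF-2α (Epas1), and the β subunit ARNT. When oxygen is present, the prolyl hydroxylases PHD1 (Egln2), PHD2 (Egln1) and PHD3 (Egln3) hydroxylate the α subunits, the VHL protein then binds them, and its ligase marks them for the proteasome, while FIH (Hif1an) hydroxylates an asparagine that is needed for binding of the coactivators p300 and CBP. The α subunits are therefore controlled largely as proteins, which mRNA counts do not show. Egln1 and Egln3 are themselves textbook targets of HIF, and macrophages make both α subunits.

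After cells with fewer than 200 genes, fewer than 1000 UMIs or over 10% mitochondrial UMIs were dropped, the cells numbered 8280 and 13411 in the non-efferocytic and 6695 and 8408 in the efferocytic libraries of experiments 1 and 2, and held 101216659 to 155224183 UMIs per library. A unique molecular identifier (UMI) marks 1 captured mRNA molecule. Levels are given as CPM (counts of a gene scaled to the same UMI total in the cells of each library), and are not divided by gene length. Efferocytic cells were deeper, with medians of 17171 and 17475.5 UMIs per cell against 11146 and 9600. A UMI of at least 1 of 6 macrophage markers was found in 98.7% to 99.6% of the cells of each library. The 6 markers summed to 4152 and 3653 CPM in the non-efferocytic and 3189 and 2973 CPM in the efferocytic libraries, with Csf1r, the M-CSF receptor, at 849 and 732 CPM against 364 and 300 CPM. Of the 6, only Cd68 went the other way in both experiments, at 964 and 987 CPM against 1333 and 1477 CPM. The 2 libraries of experiment 2 shared 118 cell barcodes against 14 to 23 in the other pairs, and both held hemoglobin UMIs (39.4 and 40.9 CPM of 2 genes) that were nearly absent in experiment 1 (at most 0.02 CPM). The 5 epithelial genes examined (3 keratins, Epcam and Cdh1) summed to 0.15 and 9.36 CPM in the non-efferocytic and 0.09 and 8.01 CPM in the efferocytic libraries of experiments 1 and 2. The study describes RM1 as fibroblast-like, so these genes need not mark RM1 cells, and the part of engulfed RM1 RNA in the results was not tested. The 6 neutrophil markers summed to 3012 and 3299 CPM in the non-efferocytic and 943 and 688 CPM in the efferocytic libraries, and 3 monocyte markers to 58.3 and 61.0 CPM against 21.6 and 10.7 CPM. A UMI of at least 1 of the 6 neutrophil markers was found in 22.2% and 47.3% of non-efferocytic and 24.9% and 18.2% of efferocytic cells. Thus 1 UMI of a marker, also of a macrophage marker, does not show what a cell is. The 4 fibroblast markers summed to 144 and 119 CPM against 45.7 and 50.9 CPM, and 4 endothelial markers to 3.15 and 1.82 CPM against 5.13 and 6.47 CPM, most of it Kdr. Apart from the values given below without such cells, their part in the results was not tested.

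All members are protein-coding genes on the mm10 assembly (GRCm38), placed here by GENCODE. Hif1a (ENSMUSG00000021109) lies at chr12:73901375-73947530 on the plus strand and Egln3 (ENSMUSG00000035105) on the minus strand of the same chromosome, at chr12:54178981-54203860. Epas1 (ENSMUSG00000024140) lies at chr17:86753700-86833410 and Arnt (ENSMUSG00000015522) at chr3:95434388-95497240, both on the plus strand. Egln1 (ENSMUSG00000031987) at chr8:124908587-124949324 and Egln2 (ENSMUSG00000058709) at chr7:27158658-27166802 are on the minus strand. Vhl (ENSMUSG00000033933) at chr6:113623959-113631633 and Hif1an (ENSMUSG00000036450) at chr19:44562850-44576274 are on the plus strand. Hif1a overlaps the antisense gene Gm15283 and, on its own strand, Gm49321, which had 0 UMIs in every library, and Egln2 overlaps Cyp2t4 on the opposite strand. On their own strand, Epas1 overlaps AC096777.1 and Arnt the processed pseudogene Gm42672 in the GENCODE annotation, and both were not analysed here. Strand cannot tell reads of same-strand genes apart where they overlap, and whether the authors' counting used the strand is not given in the sources used here. Vhl has a processed pseudogene (Vhl-ps1), so that reads of near-identical sequence could be split between them.

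HIF dimers bind DNA at a short core, ACGTG or GCGTG. Promoter sequences of 7 of the 8 members were found in the RefSeq table (GRCm38.p6), all but that of Epas1, and the 250 bases before each start were searched for both letter runs on both strands. ACGTG was present in Hif1a, Egln1, Egln2 and Egln3, against 16.6% of all 32851 promoters, and GCGTG in Arnt, Egln1 and Egln2, against 28.2%. Neither was present in Vhl and Hif1an, against 38.6% of promoters with at least 1 of the 2. The promoters shown are those of the 2 members called higher below for which a sequence was found, and that of Hif1a, in lower case with the matches in capitals. They lie at chr8:124949255-124949504 (minus strand), chr12:54203875-54204124 (minus strand) and chr12:73907617-73907866 (plus strand). The starts are those of RefSeq and differ from the GENCODE positions above. By GENCODE the Hif1a stretch lies wholly, and the Egln1 stretch in part with its ACGTG run, inside the gene.
Egln1: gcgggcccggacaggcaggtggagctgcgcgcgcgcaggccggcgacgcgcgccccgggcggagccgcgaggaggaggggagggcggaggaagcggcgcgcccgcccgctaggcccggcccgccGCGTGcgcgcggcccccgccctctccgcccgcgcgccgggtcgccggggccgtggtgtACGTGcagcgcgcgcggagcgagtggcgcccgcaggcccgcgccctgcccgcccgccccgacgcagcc
Egln3: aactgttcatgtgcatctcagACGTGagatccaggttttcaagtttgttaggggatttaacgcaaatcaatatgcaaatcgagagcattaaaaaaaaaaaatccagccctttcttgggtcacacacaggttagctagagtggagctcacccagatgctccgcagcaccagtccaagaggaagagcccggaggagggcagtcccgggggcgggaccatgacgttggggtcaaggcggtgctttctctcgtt
Hif1a: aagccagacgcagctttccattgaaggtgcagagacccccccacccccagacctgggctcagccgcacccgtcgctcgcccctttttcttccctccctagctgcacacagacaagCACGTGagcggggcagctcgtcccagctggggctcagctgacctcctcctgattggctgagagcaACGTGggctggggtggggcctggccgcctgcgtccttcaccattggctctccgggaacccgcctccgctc
The ACGTG run of Egln1 begins 68 bases and its GCGTG run 126 bases before the start, while the ACGTG run of Egln3 begins 229 bases before it. Hif1a has 3 matches, of which 2 overlap, since CACGTG reads the same on both strands. A match is a description of letters, and binding was not measured.

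Of the 8 members, 3 were called higher in efferocytic BM macrophages and 0 were called lower, by edgeR's quasi-likelihood test with the experiment as a block and a Benjamini-Hochberg adjusted p under 0.05 over 13869 genes. Of all genes tested, 19.9% were called higher and 19.0% lower, so that calls were common. The members called were Epas1, Egln3 and Egln1. Epas1 and Egln3 were named as higher by the study on these same libraries, so that their direction here is not independent evidence. At a p under 0.05 before adjustment, edgeR counted 2 members lower, Hif1a and Arnt, and 3 higher, against 24.4% and 24.8% of all genes tested. DESeq2 also called 0 members lower, against 10.2% of all genes tested. On the CPM scale the groups did not overlap for 3 members that were higher and 4 that were lower in the efferocytic libraries, which held for 22.2% and 44.7% of all genes tested, so that a lower CPM value without overlap was common. Without the cells of shared barcodes, an alternative added after seeing the data, Epas1, Egln3 and Egln1 were called higher too, where 19.5% of all genes were. There Arnt was called lower (-0.23, adjusted p = 0.0484 by edgeR), as were 18.9% of all genes. Without the experiment block 2 members were called higher, where 9.27% of all genes were.

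**Figure D1:**
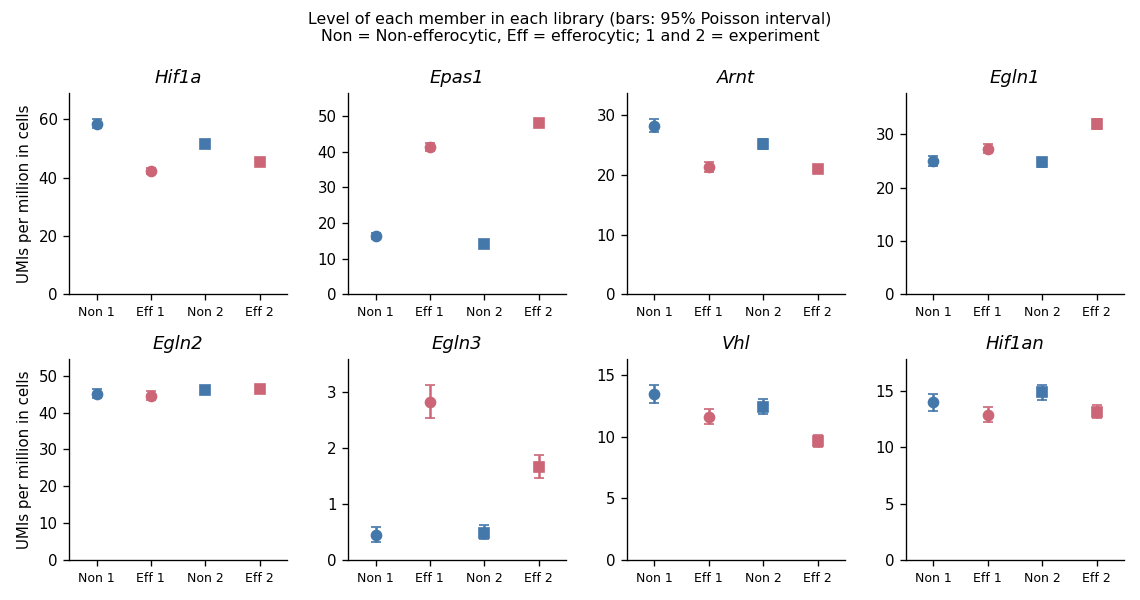
Level of each member in CPM (y axis from 0) in the non-efferocytic (Non, blue) and efferocytic (Eff, red) library of experiments 1 and 2, with 95% Poisson intervals that cover counting error only. Epas1 and Egln3 stand well above both non-efferocytic libraries in both efferocytic libraries, while the 4 libraries of Egln2 lie between 44.6 and 46.4 CPM.

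Of the α subunits, Epas1 rose in efferocytic BM macrophages and Hif1a was not called. The Epas1 level was 16.3 and 14.1 CPM in the non-efferocytic libraries of experiments 1 and 2 and 41.2 and 47.9 CPM in the efferocytic libraries. Both efferocytic libraries were above both non-efferocytic libraries, the lowest of them 2.53 times the highest non-efferocytic value. The log2 fold change of Epas1 was 1.66 (SE 0.0997, adjusted p = 5.08e-05 by edgeR), or 3.17-fold. The log2 fold change was 1.77 without the non-efferocytic library of experiment 1 and 1.56 without that of experiment 2. Those fits also held no experiment block and had 1 non-efferocytic library, so that whether a gene was called in them says little about that gene.

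Hif1a was at 58.5 and 51.6 CPM in the non-efferocytic libraries and at 42.3 and 45.4 CPM in the efferocytic libraries. Both efferocytic values lay below both non-efferocytic values, and the log2 fold change of -0.22 (SE 0.0816) was not called (edgeR, adjusted p = 0.0648). It was called lower in cells thinned to 5000 UMIs each (-0.28, adjusted p = 0.0309), and its sign turned when UMIs were taken per cell (0.40, adjusted p = 0.169). The CPM ratios of the experiments were apart in their counting intervals. On the log2 scale they were -0.47 (95% exact binomial interval -0.52 to -0.41) in experiment 1 and -0.19 (-0.23 to -0.14) in experiment 2.

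A share of UMIs within a library does not depend on how libraries are scaled. Epas1 made up 21.8% and 21.4% of the UMIs of Hif1a and Epas1 together in the non-efferocytic libraries, with 95% Wilson intervals of 20.8% to 22.7% and 20.6% to 22.3%. In the efferocytic libraries it made up 49.3% (48.4% to 50.3%) and 51.4% (50.6% to 52.2%). The difference was 28.8 percentage points ± 1.67 (SD over 2 experiments), with 27.6 in experiment 1 and 29.9 in experiment 2. Capture may differ between genes, so that the change in the share and not the share itself is compared.

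Arnt, the partner of both α subunits, was at 28.3 and 25.1 CPM in the non-efferocytic and 21.4 and 21.0 CPM in the efferocytic libraries. The groups did not overlap, and the log2 fold change of -0.22 (SE 0.0779) missed the threshold (edgeR, adjusted p = 0.0520). It passed in 7 of the 19 alternative settings, among them cells thinned to 5000 UMIs (-0.28, adjusted p = 0.0328), and turned positive with UMIs per cell (0.39, adjusted p = 0.198). Of the UMIs of Hif1a, Epas1 and Arnt together, Arnt took 27.4% and 27.7% in the non-efferocytic and 20.4% and 18.4% in the efferocytic libraries, a difference of -8.18 points ± 1.57 (SD over 2 experiments). The share of Hif1a in the same sum was 56.8% in both non-efferocytic libraries and 40.3% and 39.7% in the efferocytic ones. Epas1 is part of this sum and rose, which by itself lowers both shares. They are therefore not separate evidence of a fall in Arnt or Hif1a.

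**Figure D2:**
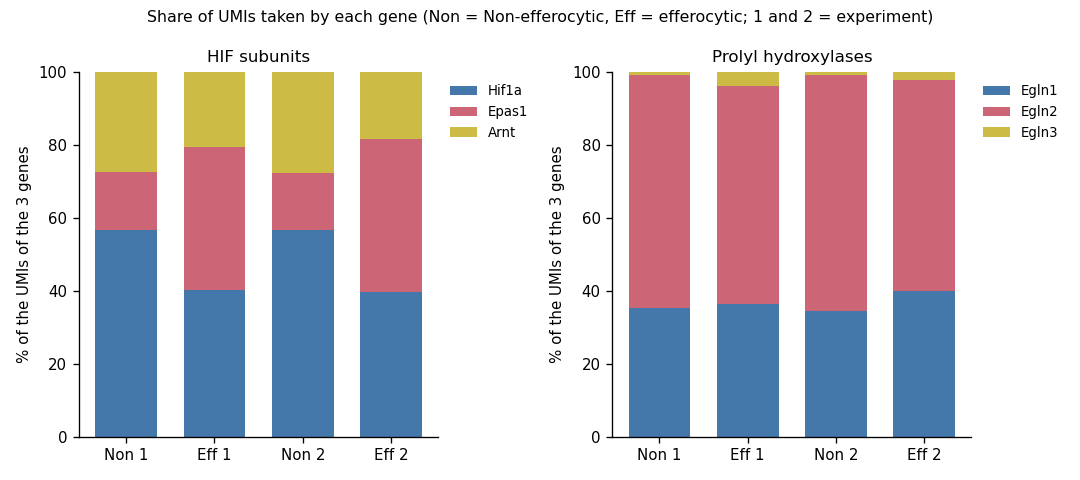
Share (%) of the UMIs of 3 genes taken by each gene in each library, for the HIF subunits (left) and the prolyl hydroxylases (right), Non for non-efferocytic and Eff for efferocytic with the experiment number. Epas1 takes a larger part and Hif1a and Arnt a smaller part in the efferocytic bars of both experiments, while Egln2 is the largest part of the hydroxylase UMIs in every library.

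Of the prolyl hydroxylases, Egln3 (PHD3) was the rarest and had the largest fitted fold change of the 8 members. In experiment 2 alone the log2 CPM ratios of Epas1 (1.77) and Egln3 (1.76) were alike. The Egln3 level was 0.445 and 0.492 CPM in the non-efferocytic libraries, from 45 and 68 UMIs, and 2.82 and 1.66 CPM in the efferocytic libraries, from 352 and 258 UMIs. The lowest efferocytic value was 3.38 times the highest non-efferocytic value, and the 2 efferocytic libraries differed from each other beyond their Poisson intervals (2.53 to 3.13 and 1.47 to 1.88 CPM). The log2 fold change was 2.30 (SE 0.250, adjusted p = 0.000478 by edgeR), or 4.91-fold. It was larger in cells thinned to 5000 UMIs (2.93, adjusted p = 4.60e-05) and without cells with neutrophil transcripts (3.33, adjusted p = 0.000106), the latter an alternative added after seeing the data, so that the size of the Egln3 difference depended on which cells and UMIs were counted. Without the non-efferocytic library of experiment 1 the log2 fold change of Egln3 was 2.30, and without that of experiment 2 it was 2.45. These fits also held no block. In barcodes under 100 UMIs, which hold free RNA, Egln3 was at 1.80 and 12.1 CPM in the non-efferocytic and 4.02 and 12.3 CPM in the efferocytic libraries, all above the level in cells. With 10% of the UMIs of each library removed as free RNA, 27 and 0 Egln3 UMIs were left in the non-efferocytic and 302 and 68 in the efferocytic libraries. The fitted log2 fold change of 4.13 (adjusted p = 0.0489 by edgeR) then rested in part on a count of 0 and is no measure of size.

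Egln1 (PHD2), the main hydroxylase of HIF-1α in most cells, was at 24.9 and 24.7 CPM in the non-efferocytic and 27.3 and 31.9 CPM in the efferocytic libraries. The groups did not overlap, and the rise was small, with a log2 fold change of 0.36 (SE 0.0809, adjusted p = 0.0106 by edgeR), or 1.28-fold. The call was lost without the block (0.36, adjusted p = 0.0513), with scaling to library totals (0.25, adjusted p = 0.0631) and with 10% of UMIs removed as free RNA (0.34, adjusted p = 0.0642). Without the non-efferocytic library of experiment 1 or 2 the log2 fold change of Egln1 was 0.37 or 0.36. Without the efferocytic library of experiment 1 or 2 it was 0.44 or 0.29. These fits also held no block.

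Egln2 (PHD1) was not called. Its values were 45.1 and 46.1 CPM in the non-efferocytic and 44.6 and 46.4 CPM in the efferocytic libraries, which overlapped, and its log2 fold change was 0.10 (SE 0.0739, adjusted p = 0.301 by edgeR). The log2 CPM ratio was -0.02 (95% exact binomial interval -0.07 to 0.04) in experiment 1 and 0.01 (-0.04 to 0.06) in experiment 2. Egln2 thus remained the most counted of the 3 hydroxylases, with 64.0% and 64.7% of their UMIs in the non-efferocytic and 59.7% and 58.1% in the efferocytic libraries. Egln3 took 0.631% and 0.689% in the non-efferocytic and 3.77% and 2.08% in the efferocytic libraries, a difference of 2.27 points ± 1.24 (SD over 2 experiments). Egln1 took 35.4% and 34.6% in the non-efferocytic and 36.5% and 39.9% in the efferocytic libraries.

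Vhl and Hif1an, which act after or beside the prolyl hydroxylases, were not called. Vhl was at 13.5 and 12.4 CPM in the non-efferocytic and 11.6 and 9.65 CPM in the efferocytic libraries, with a log2 fold change of -0.18 (SE 0.0971, adjusted p = 0.167 by edgeR). Hif1an was at 13.9 and 14.8 CPM in the non-efferocytic and 12.9 and 13.1 CPM in the efferocytic libraries, with a log2 fold change of -0.04 (SE 0.0870, adjusted p = 0.746 by edgeR). Both genes had lower CPM values in both efferocytic libraries, as had 44.7% of all genes tested, and the TMM value of Hif1an lay near the median of all genes (-0.02).

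Levels per cell were compared as well, since efferocytic cells held more UMIs. Per 100 cells, Hif1a had 71.5 and 53.2 UMIs in the non-efferocytic and 78.9 and 83.8 in the efferocytic libraries, and Epas1 had 19.9 and 14.5 against 76.9 and 88.5. Every member had more UMIs per cell in the efferocytic library of each experiment. These values divide by the number of cells, which in the non-efferocytic library of experiment 2 depended on the UMI cut. That library held 36048 barcodes of at least 500 and under 1000 UMIs, just below the cut. The other non-efferocytic library held 2046 such barcodes and the efferocytic libraries 1496 and 1048. A cut at 5000 UMIs kept 86.7% and 74.6% of the non-efferocytic and 91.9% and 94.0% of the efferocytic cells. Scaling by the number of cells moved the median over all genes to 0.60 on the log2 scale, against -0.02 with TMM (trimmed mean of M-values, the main scaling) and -0.12 with library totals, and 49.9% of genes were called higher. The 4 members called higher in that fit were Epas1 (2.28), Egln3 (2.92), Egln1 (0.97) and Egln2 (0.72). Hif1a, Arnt, Vhl and, by little, Hif1an lay below the median of all genes in both fits. The split of all calls was 2761 higher and 2636 lower with TMM, 6921 and 586 with UMIs per cell, and 1847 and 3700 with library totals.

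**Figure D3:**
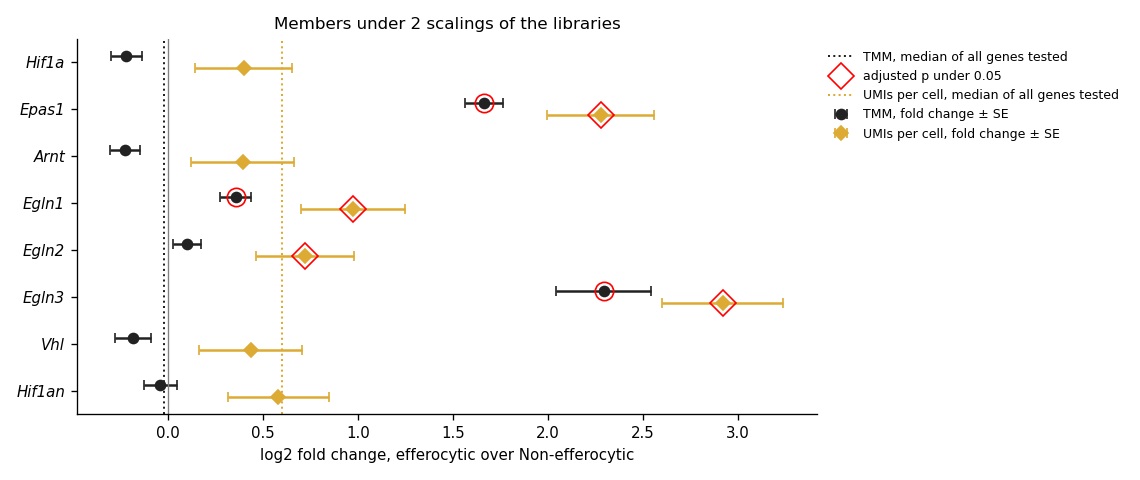
Log2 fold change (efferocytic over non-efferocytic, x axis) of each member ± SE with TMM scaling (black circles) and with UMIs per cell (yellow diamonds), with red outlines at adjusted p under 0.05 and dotted lines at the median of all genes tested. Epas1 and Egln3 lie far to the right of both medians, while Hif1a, Arnt, Vhl and Hif1an lie below 0 with TMM and above 0 per cell.

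The share of cells in which a member was detected depended on depth. Without thinning, the share was higher in efferocytic cells for all 8 members in both experiments, as it was for 61.9% of all genes tested. In cells thinned to 5000 UMIs, which left 7181 and 10007 non-efferocytic and 6151 and 7903 efferocytic cells, the share with an Epas1 UMI was 7.37% and 6.35% in the non-efferocytic and 18.0% and 19.9% in the efferocytic libraries. Egln3 was detected in 11 and 17 of these non-efferocytic cells (0.153% and 0.170%) and in 92 and 58 of the efferocytic cells (0.734% in experiment 2). These 2 members had higher shares with Wilson intervals apart in both experiments, which held for 12.5% of all genes tested. In cells with many neutrophil transcripts, described below, Epas1 was detected in 1.41% and 1.79% of non-efferocytic thinned cells, with a median of 16933 and 16803.5 UMIs before thinning against 12110 and 11657 in the other cells. Hif1a (25.4% and 22.4% against 19.6% and 20.6%) and Arnt (14.1% and 12.2% against 11.1% and 10.2%) had lower shares by the same rule, which held for 15.0% of all genes.

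**Figure D4:**
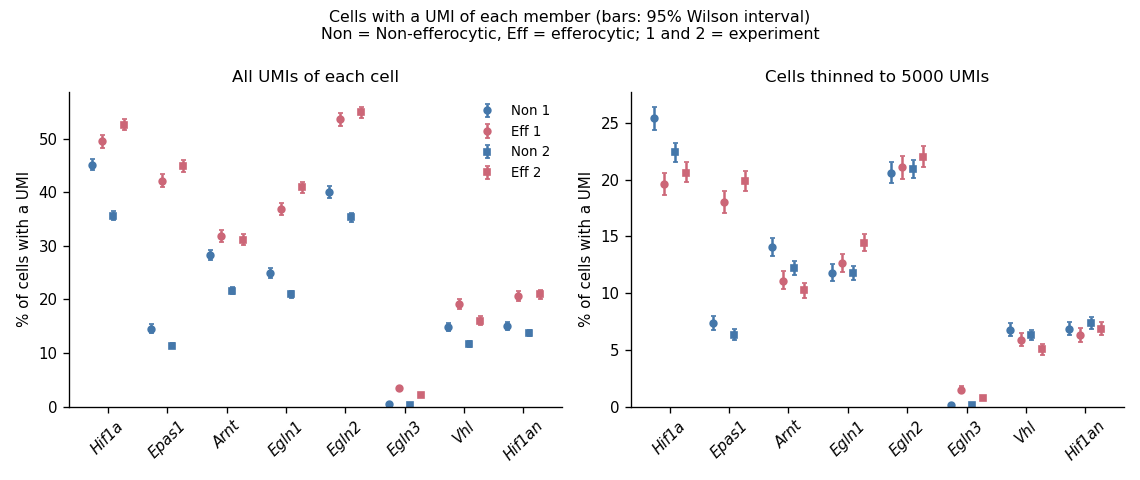
Share (%) of cells with at least 1 UMI of each member, with all UMIs of each cell (left) and in cells thinned to 5000 UMIs (right), for each library with 95% Wilson intervals (circles for experiment 1, squares for experiment 2). The efferocytic points of Hif1a, Arnt, Vhl and Hif1an lie above the non-efferocytic ones on the left and below them on the right.

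Split by α subunit, 23.5% and 20.9% of thinned non-efferocytic cells had UMIs of Hif1a alone, against 16.0% and 15.7% of efferocytic cells. Cells with Epas1 alone were 5.49% and 4.84% of non-efferocytic and 14.4% and 14.9% of efferocytic cells. Cells with both were 1.88% and 1.51% against 3.61% and 4.99%. The number with both was 1.00, 1.02, 1.06 and 1.21 times that given by the product of the shares (non-efferocytic and efferocytic of experiment 1, then of experiment 2). At this depth 64.4% to 72.8% of the cells of a library had neither.

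Over all 28 pairs of members, 0 had a ratio whose 95% Poisson interval lay above 1 in all 4 libraries of thinned cells, and 0 lay below 1. Without thinning 21 pairs lay above 1. Egln1 and Egln3 came closest, with 2, 24, 9 and 21 thinned cells holding both (in the same order) against 1.30, 11.6, 2.00 and 8.37 given by the shares. Their ratios were 1.54, 2.07, 4.50 and 2.51, with an interval that reached below 1 in the non-efferocytic library of experiment 1 (0.186 to 5.56). The pair was singled out after its values were seen. Cells with many neutrophil transcripts, described below, were kept here, and their part in these ratios was not tested. In the non-efferocytic library of experiment 2 they were 1.12% of thinned cells. There they made up 7 of the 17 cells with Egln3 and 2.21% of those with Egln1.

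The spread of UMIs over cells was compared with a Poisson distribution. In thinned cells, the number of cells with 2 or more UMIs of Egln2 was 1.04 to 1.10 times that of a Poisson distribution with the same mean. The ratio was 2.13 in both non-efferocytic libraries and 1.53 in both efferocytic libraries for Epas1, and 18.5 and 30.9 in the efferocytic libraries for Egln3, where 19 and 9 cells had 2 or more. In the non-efferocytic libraries only 1 and 0 cells had 2 or more Egln3 UMIs, too few for a ratio. Epas1 UMIs in all 4 libraries, and Egln3 UMIs in the efferocytic libraries, had higher ratios than those of Egln2. In the efferocytic library of experiment 2 Vhl was at 1.79 (19 cells with 2 or more), above Epas1, but at 0.943 to 1.28 elsewhere. Egln1 reached 1.37 (efferocytic, experiment 1) and Hif1a 1.29 (non-efferocytic, experiment 2). Sets of cells defined by other genes were compared to see in which cells Epas1 and Egln3 UMIs lay.

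Cells with MHC class II transcripts (at least 5 UMIs of the list after thinning) had little Epas1. In these cells Epas1 was at 6.96 and 5.62 CPM in the non-efferocytic and at 10.8 and 6.78 CPM in the efferocytic libraries, the last 2 from 12 and 13 UMIs. The other cells of the same libraries were at 17.2 and 15.4 CPM and at 41.4 and 48.5 CPM. The set made up 10.1% and 13.8% of thinned non-efferocytic but 0.894% and 1.25% of efferocytic cells. Hif1a differed less between the same sets, with 49.2 and 41.7 CPM inside and 58.3 and 52.0 CPM outside in the non-efferocytic libraries. A set is a range of a summed count and not a cell type, and cells of 1 library are not replicates, so that no test was made.

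In cells with interferon-response transcripts Epas1 was at 11.1 and 9.52 CPM in the non-efferocytic and at 29.1 and 34.2 CPM in the efferocytic libraries, again above the non-efferocytic level. In cycling cells it was at 16.7 and 19.4 CPM against 39.4 and 37.0 CPM. The efferocytic value was the higher of the 2 in each experiment inside and outside each of these 3 sets, but inside the MHC class II set the Poisson intervals overlapped. Cells with Arg1 (at least 5 UMIs) were too few for a comparison, with 51 and 6 efferocytic cells against 0 and 1. In those efferocytic cells Egln3 was at 33.8 and 38.3 CPM, from 26 and 3 UMIs.

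Egln3 was also high in cells with many neutrophil transcripts, a set of at least 20 UMIs of 6 neutrophil genes that was chosen after values were seen. It held 71 and 112 non-efferocytic and 23 and 21 efferocytic cells. There Egln3 was at 17.7 and 17.8 CPM in the non-efferocytic and at 20.8 and 23.6 CPM in the efferocytic libraries, with Poisson intervals that overlapped in each experiment. Outside the set it was at 0.217 and 0.224 CPM against 2.71 and 1.61 CPM. In the non-efferocytic libraries 24 and 37 Egln3 UMIs were in the set and 21 and 29 outside it, and in the efferocytic libraries 10 and 11 were in the set and 334 and 247 outside it. Epas1 was lower in the set than outside it, at 2.95 and 3.86 CPM (4 and 8 UMIs) against 16.4 and 14.1 CPM in the non-efferocytic libraries, and with 2 and 0 UMIs in the set in the efferocytic libraries. Without cells in which neutrophil transcripts were at least 0.4% of UMIs, the log2 fold change of Egln3 was 3.33 (SE 0.264), as given above, and that of Epas1 1.64.

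**Figure D5:**
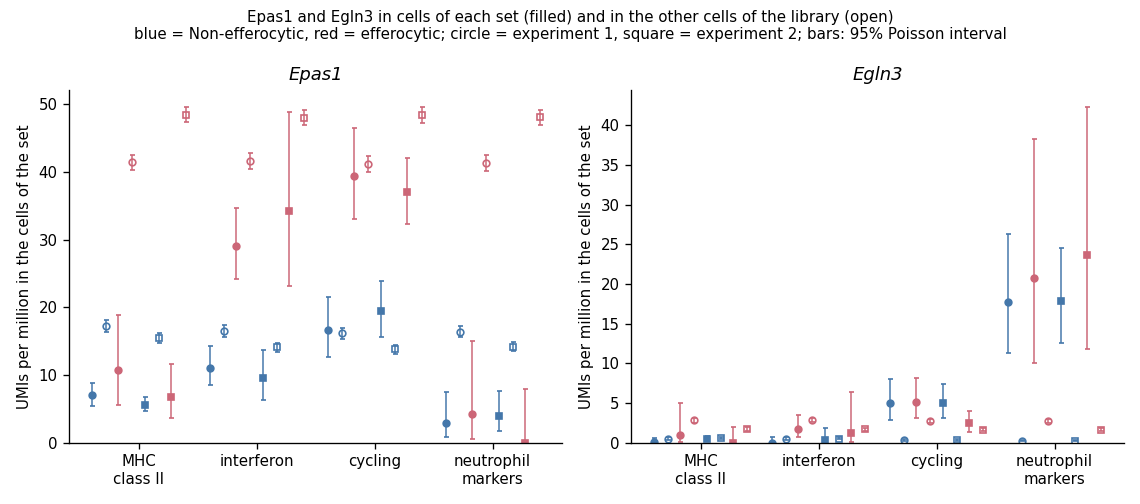
Level (CPM within the cells of the set) of Epas1 (left) and Egln3 (right) in cells with MHC class II, interferon, cycling or neutrophil transcripts (filled) and in the other cells of the same library (open), with 95% Poisson intervals, blue for non-efferocytic and red for efferocytic libraries. Epas1 is low inside the MHC class II and neutrophil sets, and of the sets shown, Egln3 is above 17 CPM only in the neutrophil set.

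Cycling cells also held more Egln3, at 4.97 and 4.96 CPM in the non-efferocytic libraries against 0.296 and 0.339 CPM in the other cells. In the efferocytic libraries the values were 5.13 and 2.42 CPM against 2.71 and 1.64 CPM. Of the non-efferocytic thinned cells with an Egln3 UMI, 4 of 11 and 6 of 17 were cycling, while such cells made up 2.65% and 2.60% of all cells. These are few cells, and cells of the cycling and the neutrophil set were not separated.

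The genes whose counts were most raised in cells with a UMI of a member were ranked among 2220 genes with at least 50 CPM in every library. For Epas1 they were Tfrc (the transferrin receptor), Lhfpl2 and Cd36 (a scavenger and fatty acid receptor), with ratios of at least 1.36, 1.32 and 1.30 over the 4 libraries. Tfrc was at 445 and 496 CPM in non-efferocytic thinned cells with an Epas1 UMI and at 307 and 280 CPM in those without. In efferocytic cells Tfrc was at 643 and 556 CPM against 473 and 348 CPM. For Hif1a the leading genes were Pbrm1, Nfe2l1 and Pim1, with ratios of at least 1.18, 1.17 and 1.17. For Egln3 only the efferocytic libraries had 50 positive cells (92 and 58), and S100a8, S100a9 and Camp, 3 neutrophil genes, led with ratios of at least 12.2, 10.6 and 5.28. These ratios rested on the 4 and 2 of those cells that were in the neutrophil set. Without the set, an alternative added after seeing the data, the ratios of S100a8 were 1.87 and 2.03, from 12 and 6 UMIs in cells with Egln3, and those cells held 1 and 0 UMIs of S100a9 and 0 of Camp.

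Of 27 other genes of the pathway in 4 lists, 25 were tested, 7 were called higher and 6 lower, with a median log2 fold change of 0.05 against -0.02 over all genes. Since 19.9% of all genes were called higher and 19.0% lower, these counts and those of each list below are descriptions of the named genes and show nothing particular to a list. Of the other subunits that pair in the same protein family, Ahr (the aryl hydrocarbon receptor) fell by 1.64 on the log2 scale (adjusted p = 0.000125 by edgeR) and Arntl (BMAL1 of the circadian clock) by 0.61 (adjusted p = 0.00539). Ahr went from 10.8 and 7.20 CPM to 2.80 and 2.44 CPM. Hif3a and Arnt2 had too few counts to test, with 2, 0, 1 and 0 UMIs of Hif3a and 5, 4, 4 and 10 of Arnt2 (non-efferocytic and efferocytic of experiment 1, then of experiment 2). Of the 4 other subunits of the VHL ligase, Elob (0.48), Rbx1 (0.45) and Cul2 (0.29) were called higher and Eloc (0.21) was not. Their substrate receptor Vhl itself was not called, as given above.

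Among 7 other oxygen-dependent dioxygenases, P4ha2 (1.18), P4ha1 (0.73) and Ado (0.48) were called higher. P4ha1 and P4ha2 are collagen prolyl hydroxylases and Ado a thiol dioxygenase. Kdm6a (-0.40) and Kdm5a (-0.27), histone demethylases that were outside the naming rule and are named because they complete the count, were called lower. P4ha2 went from 3.28 and 3.48 CPM to 6.19 and 8.10 CPM. The median over this list was -0.12, opposite in sign to its larger count of higher calls.

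Of 12 genes for HIF cofactors and stability, Hsp90aa1 (a chaperone that binds HIF-1α) rose by 0.86 on the log2 scale and Cited2 (which competes with HIF for p300 and CBP) and Ep300 (p300) fell by 0.53 and 0.27. Hsp90aa1 was at 130 and 134 CPM in the non-efferocytic and at 199 and 249 CPM in the efferocytic libraries. Cited2 was at 135 and 111 CPM against 77.2 and 80.1 CPM. The other 9 genes did not pass the test, and the median of the list was 0.01. Arntl, Kdm5a, Kdm6a, Cited2 and Ep300, all called lower with TMM, had positive values between 0.0043 and 0.35 with UMIs per cell.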

How the data were processed

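Single-cell RNA sequencing libraries (10X Genomics 3′ kit v3.1) of 2 efferocytic and 2 non-efferocytic samples of BM macrophages were analyzed, 1 of each per experiment. The authors aligned reads with STAR, inside Cell Ranger, to the mm10 genome and deposited raw UMI counts of all 6794880 barcodes before any cell filter. The submitters' notes name Cell Ranger 3.0.0, as do the file headers of experiment 1, and those of experiment 2 name 3.1.0. The study's integration and its tests on cells were not repeated.

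Cells were barcodes with at least 200 genes, 1000 UMIs and at most 10% mitochondrial UMIs. UMI sums of each library entered edgeR 4.0.16 under R 4.3.3 (its quasi-likelihood test, after filterByExpr and TMM), and the model held the experiment as a block. The experiment label pairs the libraries, whose deviations from the group means correlated at 0.799 over 7097 genes. P-values were Benjamini-Hochberg adjusted over all genes tested, with a threshold of 0.05. The code was tested on simulated data. Each experiment alone has 1 library per group and gave values with no test. Intervals (95% Poisson, Wilson or, for CPM ratios, exact binomial on the split of UMIs between the libraries) cover counting error only. A count of 0 in a library allows up to 0.0193 to 0.0296 CPM (3 counts). Cells were thinned without replacement to 5000 UMIs and shallower cells left out. Doublets were not called. The alternatives were no block, DESeq2 1.42.0, other scalings, no gene filter, other cell filters, free RNA removal and each library left out. Fits with 1 library left out held no block and had 1 library in 1 group.

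The members, gene lists, naming rule and tests were chosen with earlier results of these data known. Named are all members, up to 3 called genes with the largest change of each pathway list with the genes not tested, and the 3 genes most raised in cells with Hif1a, Epas1 or Egln3.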

Additional observations from a re-analysis of the deposited data

Results flagged for a closer look

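Epas1 was also counted in barcodes that were not kept as cells. In barcodes of 1 to 9 UMIs its level was 42.1 and 36.2 CPM in the efferocytic libraries of experiments 1 and 2, against 13.7 and 11.7 CPM in the non-efferocytic libraries. In barcodes of at least 100 and under 500 UMIs it was 32.0 and 29.5 CPM against 13.4 and 13.2 CPM. The other ranges did not show this in both experiments. In barcodes of 10 to 99 UMIs Epas1 was at 68.3 CPM in the efferocytic and 44.8 CPM in the non-efferocytic library of experiment 1 but at 14.3 and 17.8 CPM in those of experiment 2. In barcodes of at least 500 and under 1000 UMIs it was at 34.9 against 7.14 CPM in experiment 1 and at 23.5 against 13.1 CPM in experiment 2, where the intervals overlapped. In the first 2 ranges the Poisson intervals of the groups were apart in both experiments, which held for no other member in any range below 1000 UMIs. The source of these UMIs was not tested. With 2 libraries per group, no library could be tested as an outlier within its group.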

How the results depend on the processing

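The cause of the changes below was not tested. Counts of all genes called went from 5397 to 2358 with no replicate block, 2473 with free RNA removed, 3389 with DESeq2 and 0 to 2933 with 1 library left out. Members called higher were 0 to 3 with 1 library left out. Members called lower, 0 in the fit reported, were 2 (Hif1a and Arnt) with library totals, at most 5% mitochondrial UMIs, without the 5% of cells with the most UMIs and with thinning, where 26.7%, 19.2%, 17.7% and 18.1% of all genes tested were called lower. They were 1 (Arnt) in cells without epithelial-gene UMIs, without neutrophil-marker cells and without shared barcodes, the last 2 chosen after seeing the data, where 18.7% to 18.9% of all genes were. Pathway genes called went from 13 to 6 with no replicate block and 8 with free RNA removed, and were also fewer with 1 library left out.

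In those settings Hif1a was -0.33 (library totals), -0.24 (5% mitochondrial), -0.25 (5% of cells) and -0.28 (thinned), and Arnt -0.33, -0.25, -0.26 and -0.28, then -0.23, -0.24 and -0.23. UMIs per cell turned Hif1a (0.40), Arnt (0.39), Vhl (0.44) and Hif1an (0.58) and called Egln2 (0.72). It also turned Arntl (0.0043), Kdm5a (0.35), Kdm6a (0.22), Ep300 (0.35) and Cited2 (0.091). Library totals turned Egln2 (-0.0047). Egln1 lost its call with no replicate block (0.36), library totals (0.25) and free RNA removed (0.34). With 1 library left out, the log2 fold change ranged from 1.56 to 1.77 for Epas1, 1.90 to 2.73 for Egln3, 0.29 to 0.44 for Egln1, -0.30 to -0.12 for Hif1a, -0.30 to -0.13 for Arnt, 0.09 to 0.13 for Egln2, -0.35 to -0.0077 for Vhl and -0.078 to 0.014 for Hif1an. The Vhl value was nearest 0 without the efferocytic library of experiment 2. The difference in the Epas1 share was 31.0 points with free RNA removed. Without thinning, shares of cells turned for Hif1a (10.7 points), Arnt (6.57), Vhl (4.32) and Hif1an (6.36), so that 8 members were higher and 0 lower, and at 2000 UMIs that of Egln2 turned (-0.041). Co-detection above 1 in all libraries went from 0 to 21 pairs without thinning. In 213 comparisons of a main result with an alternative, the direction and side of the threshold were kept, or the count or share stayed close. These include genes that were called in neither fit. Another 26 moved, 6 turned in sign, 12 gained a call and 10 lost one. For the other results 310 were kept, 38 moved, 10 turned and 57 lost a call. Each group had 2 libraries, and depth limits Egln3, which rested on 45 and 68 non-efferocytic UMIs.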

Other observations

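Egln3 in barcodes of 10 to 99 UMIs was at 3.34 and 5.62 CPM in the non-efferocytic and efferocytic library of experiment 1 and at 40.4 and 36.6 CPM in those of experiment 2, where it was at 0.492 and 1.66 CPM in cells.

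Arg1-positive cells (at least 5 UMIs after thinning), of which the efferocytic library of experiment 1 held 51, had Egln3 at 33.8 CPM from 26 UMIs, Epas1 at 74.1 CPM and Egln1 at 59.8 CPM, against 2.59, 40.9 and 26.9 CPM in the other cells of that library. In the efferocytic library of experiment 2 only 6 cells belonged to this set, with 3 Egln3 UMIs. Ldha ranked below the 3 genes named for Egln3, with ratios of 3.13 and 3.27 in efferocytic cells with an Egln3 UMI (3.22 and 3.32 without the cells of the neutrophil set), and is named here after its values were seen.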
